A study of Mus musculus with 10 samples.

Results

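The 37 genes described here make ribosomes and are widely counted among the targets of the transcription factor MYC. They were listed by symbol from their roles, with earlier results of these data known, and were found through the Ensembl identifiers of GENCODE M21 (GRCm38 build). All 37 are among the 30460 genes listed for each library, and all 37 passed the filter on low values that left 15731 tested genes. By role they comprise 6 nucleolar chaperones and scaffolds, 5 genes of RNA polymerase I and its factors, 4 of the box C/D and 4 of the box H/ACA small nucleolar ribonucleoproteins, 8 of the small subunit processome and rRNA modification, 9 of large subunit assembly and 1 translation initiation factor. Ribosomal RNA is copied by RNA polymerase I in the nucleolus, where small nucleolar ribonucleoproteins modify it and assembly factors cut, fold and pack it with proteins into the small and large subunits. MYC and its relative MYCN pair with MAX and bind E-box sequences at many of these genes, and fast-dividing embryonic stem cells depend on a high output of ribosomes. MGA also pairs with MAX and, with L3MBTL2 and PCGF6, belongs to the Polycomb complex PRC1.6, which keeps genes silent.

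The 10 sequenced libraries came from C57BL/6 mouse embryonic stem cells, which are cultured pluripotent cells. There were 3 wild type libraries, 3 labelled Mga-/-, 2 labelled L3mbtl2-/- and 2 labelled Pcgf6-/-, called Mga, L3mbtl2 and Pcgf6 knockout below. Each knockout was set against the same 3 wild type libraries, so the 3 comparisons are not independent of each other. No source used here states where the deletions lie, which clones were used or whether replicates came from separate cultures. A p-value therefore measures only how these samples vary, and that variation may be technical.

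Library depth was 19370097 to 26726692 reads, and a member had between 815 and 92371 reads in a library. The targeted genes L3mbtl2 and Pcgf6 were low in their own knockouts, at 3.72 and 3.49 FPKM for L3mbtl2 against 19.8, 20.5 and 20.3 in wild type, and 9.56 and 9.82 FPKM for Pcgf6 against 29.4, 29.7 and 27.6. FPKM counts fragments per length of transcript and depth of library, so levels can be compared between genes. Mga itself was at 8.03, 19.6 and 11.2 FPKM in the Mga knockout libraries, replicates 1 to 3, and at 19.7, 18.6 and 17.1 in wild type. The library labelled Mga knockout replicate 2 was therefore within the wild type range for Mga, and the difference of that group did not pass the test (adjusted p = 0.0987). Every direction given below for Mga knockout rests in part on that library. Without it, the members that fell and rose on the deposited scale in Mga knockout were 17 and 3, in place of 12 and 3. Falls over all genes were then 22.5%, in place of 16.7%. The relative counts without that library stand below with the groups of members, regulators and other pathway genes. Spread between replicates was also wider in this group: the median SD of a member, in log2 units, was 0.19 there, and 0.04, 0.02 and 0.02 in wild type, L3mbtl2 and Pcgf6 knockout. Markers of stem cells were present in all 10 libraries, with 8 of 8 above 0 and a summed level of 2356 to 2556 FPKM in wild type and 3333 to 4136 in the knockouts. Macrophage markers summed to 160 to 166 FPKM in wild type, and in the knockouts to 29.5 to 68.1 (Mga), 395 to 410 (L3mbtl2) and 230 to 232 (Pcgf6). Of these 10 markers 2 were listed at 0 in Mga knockout replicate 2 and 1 in replicate 3. The summed fibroblast markers were at 634 FPKM in Mga knockout replicate 1 and at 271 to 395 in the other 9 libraries. Of 7 primitive endoderm markers, all above 0 in every library, the sum was 4.16 to 5.34 FPKM in wild type and 6.64 to 14.1 in the knockouts. Of the 6 of them that were tested 2, 3 and 3 rose relative to their chromosomes in Mga, L3mbtl2 and Pcgf6 knockout, with medians of 0.59, 1.23 and 1.64. Mitochondrially encoded genes had median changes of 0.73, 0.80 and 0.55 in the same order. The part of other cells and of mitochondrial RNA in the results below was not tested.

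Relative to their chromosomes, 21 of the 37 members were called lower in Mga knockout than in wild type, 10 in L3mbtl2 knockout and none in Pcgf6 knockout. Of all tested genes 20%, 21% and 4.15% were called lower in the same order. The count of members in Mga knockout moved with the settings, between 11 and 27, beside 13.3% and 28.4% of all genes. On the deposited scale, 12 members fell and 3 rose in Mga knockout, where 16.7% of all tested genes fell and 22.8% rose. In L3mbtl2 knockout 8 fell and 7 rose, where 16.7% of all genes fell and 23.4% rose, so both counts were near the general share. In Pcgf6 knockout 4 fell and 2 rose, beside 4.62% and 5.45% of all genes. The median of all genes on that scale was 0.10, 0.13 and 0.04 in Mga, L3mbtl2 and Pcgf6 knockout, and that of the members was -0.16, -0.01 and 0.09. A gene was called where limma's adjusted p, corrected over all 15731 genes, was under 0.05. In bulk RNA, fewer cells of a type and less RNA per cell cannot be told apart.

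Whole chromosomes moved in some groups, so each gene was also compared with the median change of the tested genes on its own chromosome, called the relative change here. On that scale 21 members fell and 1 rose in Mga knockout, beside 20% and 18.4% of all genes. In L3mbtl2 knockout 10 fell and 3 rose, beside 21% and 18.3% of all genes, so the falls were not far from the general share. In Pcgf6 knockout none fell and 1 rose, beside 4.15% and 5.23% of all genes. At an unadjusted limma p under 0.05, 1 member was lower (Utp4) and 6 were higher. The share of all genes at that unadjusted threshold is not given here, so no direction is read from these 2 counts. With limma-voom on recovered reads no member was called lower either, beside 4.42% of all genes. With a spread fitted per group 8 members fell in Pcgf6 knockout, and with only the 2 groups compared 9 fell, where 22% and 21.2% of all genes did. The median relative change of the 37 members was -0.28 on the log2 scale in Mga knockout, -0.13 in L3mbtl2 knockout and 0.03 in Pcgf6 knockout, where that of all genes was 0.00, 0.01 and 0.00. Member changes were small for these libraries: they ran from -1.26 to 0.21 in Mga knockout, while all genes ran from -1.33 at the 5th percentile to 1.71 at the 95th. Without Mga knockout replicate 2, 27 members fell and 2 rose in Mga knockout, beside 28.4% and 26.1% of all genes, and all 22 calls made with it were kept. Leaving out a wild type library took the falls to 14, 12 and 13 (replicates 1, 2 and 3), beside 14.1%, 13.7% and 13.8% of all genes, and with only the 2 groups compared 11 fell. The relative change in Mga knockout without its replicate 2 was -0.72 at Npm1, -0.76 at Mybbp1a, -1.52 at Polr1a, -0.70 at Nhp2 and 0.17 at Utp4. The summed FPKM of the 37 members was 4792, 4792 and 4752 in wild type, 3624, 3719 and 3393 in Mga knockout, 4691 and 4645 for L3mbtl2, and 4145 and 4158 for Pcgf6 knockout. All 7 knockout libraries lay below all wild type libraries in that sum, and Npm1 was its largest item in every library. The sum is on the deposited scale and follows its few highest genes. Npm1 lies on chromosome 11, whose median was -0.23 in Mga, 0.13 in L3mbtl2 and -0.31 in Pcgf6 knockout. The sum therefore does not show a general fall of the members.

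**Figure D1:**
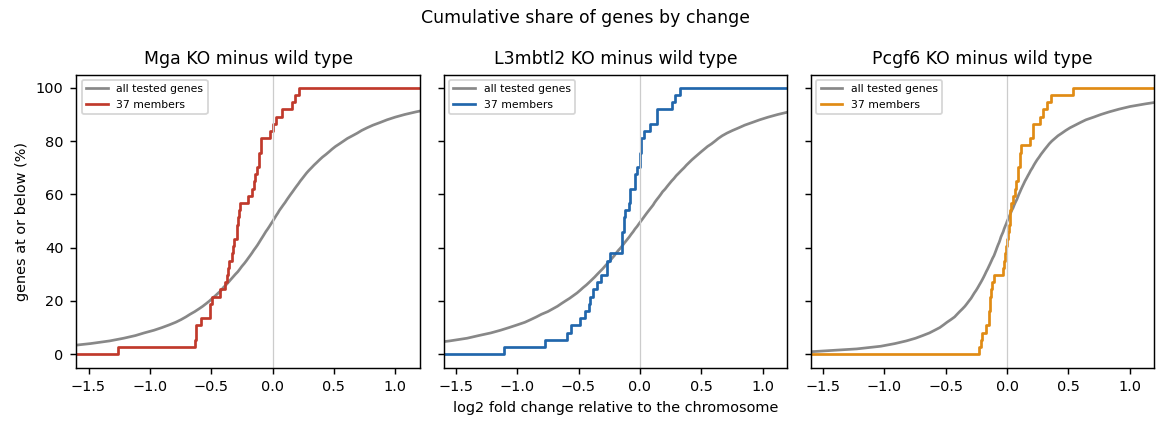
Cumulative share of genes (percent, y axis) by log2 fold change relative to the chromosome (x axis) in each knockout against wild type, for all 15731 tested genes (grey) and the 37 members (colour). The members' curve is shifted left of the grey curve in its middle in Mga knockout (median -0.28), less so in L3mbtl2 knockout (median -0.13), and crosses it near 0 in Pcgf6 knockout (median 0.03).

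Several calls on the deposited scale lay on chromosomes that moved as a whole. The 5 members on chromosome 1, Ncl, Nop58, Wdr12, Wdr75 and Rrs1, all rose in L3mbtl2 knockout on the deposited scale, by 0.68 to 1.08, where the median of that chromosome rose by 0.75. Relative to the chromosome only Wdr75 and Wdr12 of those 5 rose, and Ncl was at -0.08. The 7 members on chromosome 11 and the 1 on chromosome 16 (Rrn3) lay on chromosomes whose medians were -0.31 and -0.30 in Pcgf6 knockout and -0.23 and -0.21 in Mga knockout. All 4 members that fell on the deposited scale in Pcgf6 knockout, Npm1, Mybbp1a, Eif4a1 and Rrn3, were among these 8, and none was called relative to its chromosome. Among the 24 members on other chromosomes, 13 fell and 1 rose relative to the chromosome in Mga knockout, beside 20% and 18.4% of all genes. Of these 24, 6 fell and 1 rose in L3mbtl2 knockout, beside 21% and 18.3%, so the falls there were near the general share. In Pcgf6 knockout 1 of the 24 rose, beside 5.23% of all genes. The median relative changes of these 24 members were -0.28, -0.14 and 0.03. Their chromosomes were not free of shifts either. In Mga knockout replicate 1 the medians of chromosomes 6, 14 and 18, which hold Polr1a, Gnl3 and Tcof1, were 0.53, 0.43 and 0.44. They were 0.04, 0.06 and 0.04 in replicate 2 and 0.27, 0.22 and 0.10 in replicate 3.

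**Figure D2:**
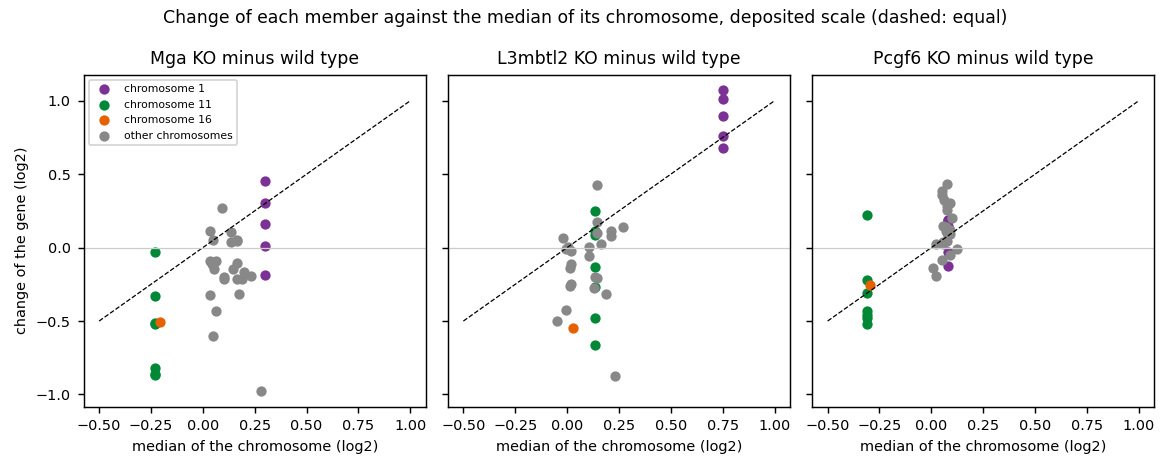
Log2 fold change of each of the 37 members on the deposited scale (y axis) against the median log2 fold change of the tested genes on its chromosome (x axis), in each knockout minus wild type; the dashed line marks equality. Chromosome 1 members sit at a median of 0.75 in L3mbtl2 knockout, chromosome 11 and 16 members at -0.31 and -0.30 in Pcgf6 knockout, and most points of Mga knockout lie below the line.

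The promoters of the members were searched for the E-box CACGTG, which reads the same on both strands and is the element that MAX dimers bind. RefSeq windows (GRCm38.p6) of 250 bases before to 50 bases after a start matched 31 of the 37 members by symbol, with 40 windows. The motif was in 7 of those 40 windows, or 17.5%, against 7.15% of all 32851 windows of the table and 20.2% of the 119 windows of other ribosome biogenesis genes. The stretches around it are shown because they let the 7 genes be compared, in lower case, 5′ to 3′ in the direction of the gene, with the E-box in capitals.
Rrn3, chr16:13780621-13780686, plus strand, 48 bases before the start: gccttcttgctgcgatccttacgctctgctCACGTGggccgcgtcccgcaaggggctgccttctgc
Rrn3, chr16:13780454-13780519, plus strand, 215 bases before the start: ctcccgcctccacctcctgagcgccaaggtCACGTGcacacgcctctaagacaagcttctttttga
Eif4a1, chr11:69672577-69672642, minus strand, 189 bases before the start: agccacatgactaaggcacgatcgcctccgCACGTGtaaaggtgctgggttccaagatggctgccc
Pes1, chr11:3963965-3963994, plus strand, 2 bases after the start: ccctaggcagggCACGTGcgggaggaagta
Mybbp1a, chr11:72441355-72441376, plus strand, 40 bases after the start: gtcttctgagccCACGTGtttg
Wdr43, chr17:71616220-71616249, plus strand, 17 bases after the start: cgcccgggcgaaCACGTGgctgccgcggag
Utp20, chr10:88826765-88826789, minus strand, 37 bases after the start: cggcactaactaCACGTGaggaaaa
Utp4, chr8:106893643-106893672, plus strand, 15 bases after the start: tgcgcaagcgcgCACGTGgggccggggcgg
Rrn3 held 2 copies and the other 6 genes 1 each, and 5 of the 7 genes had it within the first transcribed bases. Of the 7 genes with the motif 4 fell in Mga knockout relative to their chromosome (Rrn3, Mybbp1a, Pes1 and Wdr43) and 1 rose (Utp4). Of the 24 without it 15 fell and none rose, and the median relative change was -0.27 with the motif and -0.29 without. Without Mga knockout replicate 2 the counts were 4 fallen and 1 risen of the 7, and 18 and 1 of the 24. Of all genes 28.4% fell and 26.1% rose under that setting. In L3mbtl2 knockout 3 of the 7 fell (Rrn3, Mybbp1a and Pes1) and none rose, while 6 of the 24 fell and 3 rose, with medians of -0.13 and -0.11. In Pcgf6 knockout the medians were -0.13 with and 0.05 without, and Nop10, which has no E-box in its window, was the 1 gene called. The E2F element GGCGGGAA, on either strand, was in 2 of the 40 windows (Nolc1 and Nop58; 5%, against 2.19% of all windows), and the T-box element AGGTGTGA in 1 (Dkc1; 2.5% against 1.28%). E2F6 and the T-box of MGA bind such elements in PRC1.6. A match is a run of letters and not a measured binding site.

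**Figure D3:**
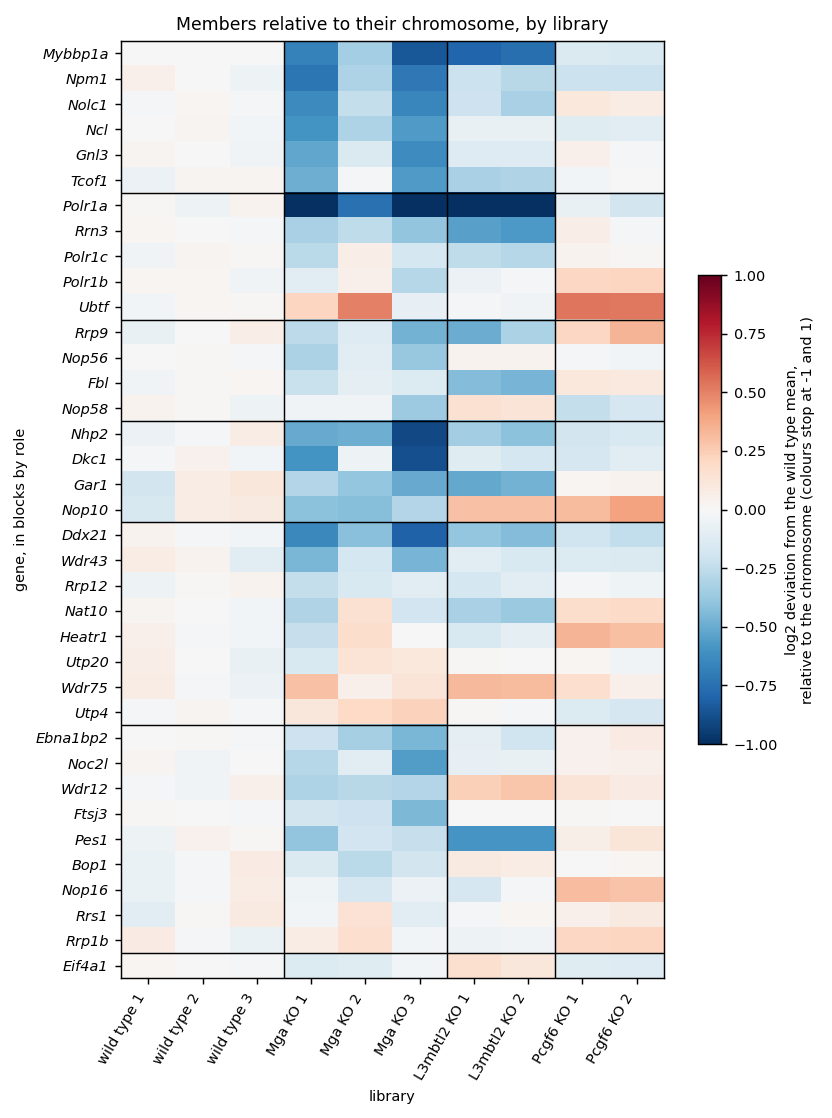
Log2 deviation of each member from its wild type mean, relative to its chromosome, in each of the 10 libraries (columns), with genes in blocks by role from nucleolar chaperones at the top to Eif4a1 at the bottom (rows); blue is lower, red is higher, and colours stop at -1 and 1. Blue fills most of the Mga knockout columns, with library medians of -0.28, -0.15 and -0.36, and L3mbtl2 knockout shows strong blue for Polr1a, Mybbp1a, Pes1 and Rrn3.

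The nucleolar chaperones and scaffolds fell together in Mga knockout: 5 of 6 fell relative to their chromosome, beside 20% of all genes. The sixth, Tcof1, was at -0.36 with an adjusted p of 0.0559. All 6 fell without Mga knockout replicate 2, beside 28.4% of all genes. Npm1 (chr11:33152287-33163206, minus strand) encodes nucleophosmin, an abundant chaperone of the outer nucleolus, and had the highest level of all members. It was at 1343, 1297 and 1261 FPKM in wild type, with 727, 816 and 672 for Mga, 1200 and 1167 for L3mbtl2 and 901 and 908 for Pcgf6 knockout. All 3 Mga knockout libraries lay below every other library, Pcgf6 knockout came next, and L3mbtl2 knockout lay just under wild type. The Mga knockout mean was 56.8% of wild type (738 ± 73 against 1300 ± 41 FPKM, SD, n = 3 and 3), a relative change of -0.58 (SE 0.11, adjusted p = 0.0049). In Pcgf6 knockout Npm1 fell by 0.52 on the deposited scale (adjusted p = 0.0113) but stood at -0.21 relative to chromosome 11 (adjusted p = 0.337). In L3mbtl2 knockout it was at -0.25 (adjusted p = 0.156), and against its nearest genes it passed there (-0.40, adjusted p = 0.0469).

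Mybbp1a, on chromosome 11, encodes a nucleolar protein that binds MYB and holds down RNA polymerase I transcription. Its levels were 253, 254 and 257 FPKM in wild type, with 147, 156 and 120.03 for Mga, 157 and 165 for L3mbtl2 and 185 and 186 for Pcgf6 knockout. Every knockout library was below every wild type library. The relative change was -0.62 (SE 0.11, adjusted p = 0.00351) in Mga knockout and -0.77 (SE 0.13, adjusted p = 0.0021) in L3mbtl2 knockout. In Pcgf6 knockout the deposited change of -0.46 came to -0.15 relative to the chromosome (adjusted p = 0.514).

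Ncl, which encodes the RNA-binding protein nucleolin, lies on chromosome 1. It was at 206, 207 and 197 FPKM in wild type, with 199.67, 176 and 161 for Mga, 325 and 324 for L3mbtl2 and 198 and 199.97 for Pcgf6 knockout. On the deposited scale the Mga knockout libraries overlapped wild type and the L3mbtl2 knockout libraries lay far above all others. Relative to chromosome 1, Ncl fell in Mga knockout, by 0.49 (SE 0.08, adjusted p = 0.00209), and stood at -0.08 in L3mbtl2 knockout (adjusted p = 0.523).

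Nolc1 encodes a scaffold that carries small nucleolar ribonucleoproteins, and Gnl3 encodes nucleostemin, a GTPase enriched in stem cells. Nolc1 was at 141, 144 and 142 FPKM in wild type, with 95, 123 and 99.7 for Mga, 123 and 115 for L3mbtl2 and 159 and 156 for Pcgf6 knockout. Its Mga knockout libraries lay below wild type, as did both L3mbtl2 libraries, while both Pcgf6 libraries lay above. The relative change in Mga knockout was -0.51 (SE 0.11, adjusted p = 0.00664), and that in L3mbtl2 knockout did not pass (-0.27, adjusted p = 0.11). Gnl3 changed by -0.43 (SE 0.11, adjusted p = 0.0167) in Mga knockout, a call that ended under 4 of 21 other settings. Small nucleolar RNA genes lie inside Gnl3 and its exons overlap 4 other listed genes, so its reads could be split. Tcof1 encodes treacle, which joins RNA polymerase I to its factors, and was at 83.8, 88.3 and 62.8 FPKM in Mga knockout and 84.3, 88.1 and 87.8 in wild type, with replicate 3 of the knockout the lowest.

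Within the RNA polymerase I group 2 of 5 genes fell in both Mga and L3mbtl2 knockout, the same pair: Polr1a, the largest catalytic subunit, and Rrn3, the factor that brings the polymerase to the promoter. Of all genes 20% and 21% fell in Mga and L3mbtl2 knockout. The other 3, Polr1b, Polr1c and Ubtf, passed in no comparison with wild type relative to the chromosome. Without Mga knockout replicate 2 the falls in Mga knockout were 4 of 5, beside 28.4% of all genes. Polr1a (chr6:71909053-71984935, plus strand) was at 15.7, 15 and 15.8 FPKM in wild type, with 6.32, 9.48 and 7.91 for Mga, 8.19 and 8.56 for L3mbtl2 and 16 and 14.8 for Pcgf6 knockout. All 5 Mga and L3mbtl2 knockout libraries were at 9.48 FPKM or less and the other 5 at 14.8 or more, with no overlap. The relative change was -1.26 (SE 0.22, adjusted p = 0.00306) in Mga knockout and -1.11 (SE 0.25, adjusted p = 0.00871) in L3mbtl2 knockout, the largest falls of any member in both on this scale. The size in Mga knockout depended on the neighbours used: chromosome 6 had a median of 0.28, while the tested genes nearest to Polr1a on both sides had a median of -0.42, against which Polr1a changed by -0.56 (SE 0.18, adjusted p = 0.0361). On that local scale Ddx21 (-0.70), Npm1 (-0.66), Mybbp1a (-0.61) and Nhp2 (-0.59) were lower than Polr1a in Mga knockout. In L3mbtl2 knockout the nearest genes had a median of 0.03 and the local change was -0.91 (adjusted p = 0.00783).

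Rrn3 (chr16:13780708-13814839, plus strand) was at 95.1, 93 and 90.8 FPKM in wild type, with 64.7, 65.8 and 66.1 for Mga, 63.6 and 63.7 for L3mbtl2 and 79.4 and 76.1 for Pcgf6 knockout. The Mga and L3mbtl2 knockout libraries formed a narrow band well below wild type, with the library labelled Mga knockout replicate 2 inside it. Relative changes were -0.33 (SE 0.06, adjusted p = 0.00298) in Mga knockout and -0.56 (SE 0.06, adjusted p = 0.000423) in L3mbtl2 knockout. In Pcgf6 knockout the deposited fall of 0.26 (adjusted p = 0.0317) was matched by the median of chromosome 16, which left 0.03 (adjusted p = 0.843).

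Polr1b, the second catalytic subunit, ranged from 28.4 to 35.8 FPKM, with both Pcgf6 libraries above wild type. Polr1c, which RNA polymerase III shares, was at 45 and 44.6 FPKM in L3mbtl2 knockout and 51.5, 54.4 and 54.1 in wild type, a relative change of -0.27 at an adjusted p of 0.05, just outside the threshold. Against its nearest genes Polr1c passed there, at -0.35 (adjusted p = 0.0185). Ubtf encodes UBF, which coats active ribosomal DNA. It was at 48.8, 50.7 and 50.7 FPKM in wild type, with 53.6, 55.2 and 40.02 for Mga, 52.9 and 53.2 for L3mbtl2 and 58.3 and 58.6 for Pcgf6 knockout. Both Pcgf6 libraries were above all wild type libraries, and relative to chromosome 11 the difference was 0.53 (SE 0.14, adjusted p = 0.0514). Against its nearest genes, whose median was 0.14, it was 0.08 (adjusted p = 0.781).

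Box C/D ribonucleoproteins place methyl groups on rRNA, and their 4 members parted between the knockouts. Nop56 and Rrp9 fell in Mga knockout, Fbl and Rrp9 fell in L3mbtl2 knockout, and none was called in Pcgf6 knockout. The falls in Mga and L3mbtl2 knockout stand beside 20% and 21% of all genes. Without Mga knockout replicate 2, 3 of the 4 fell in Mga knockout, beside 28.4% of all genes. Fbl encodes fibrillarin, the methyltransferase itself, and was at 223, 234 and 238 FPKM in wild type, with 196, 225 and 222 for Mga, 165 and 162 for L3mbtl2 and 267 and 265 for Pcgf6 knockout. L3mbtl2 knockout lay below and Pcgf6 knockout above all other libraries, while Mga knockout overlapped wild type. The relative change was -0.45 (SE 0.06, adjusted p = 0.00109) in L3mbtl2 knockout, or 70.6% of the wild type mean, and -0.15 in Mga knockout (adjusted p = 0.0668). Nop56, a core protein that holds the box C/D particle together, changed by -0.27 (SE 0.07, adjusted p = 0.0216) in Mga knockout and 0.03 in L3mbtl2 knockout. Its call in Mga knockout ended under 6 of 21 other settings, among them the absence of any 1 wild type library (adjusted p up to 0.196 over all 21). Rrp9, the U3-specific protein, changed by -0.29 (SE 0.10, adjusted p = 0.0485) and -0.41 (SE 0.11, adjusted p = 0.0199), and the first of these calls ended under 15 of 21 other settings. Nop58, the partner of Nop56 on chromosome 1, stood at 56.5 and 55.3 FPKM in L3mbtl2 knockout against 31.2, 30.3 and 28.7 in wild type, which was 0.14 relative to its chromosome (adjusted p = 0.308).

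All 4 box H/ACA members, whose particles turn uridine into pseudouridine, fell in Mga knockout relative to their chromosomes. That held with and without Mga knockout replicate 2, where 20% and 28.4% of all genes fell. Against the nearest genes Gar1 (-0.26, adjusted p = 0.057) and Dkc1 (-0.37, adjusted p = 0.128) did not pass in Mga knockout. Dkc1 is the pseudouridine synthase, and Gar1, Nhp2 and Nop10 are the core proteins around it. Nhp2 (chr11:51619735-51623714, plus strand) was at 324, 336 and 359 FPKM in wild type, with 221, 187 and 154 for Mga, 285 and 278 for L3mbtl2 and 239 and 248 for Pcgf6 knockout. No knockout library overlapped wild type, and all 3 Mga knockout libraries were below all others. Relative changes were -0.63 (SE 0.11, adjusted p = 0.0028) in Mga knockout, -0.38 (SE 0.12, adjusted p = 0.0366) in L3mbtl2 knockout and -0.17 in Pcgf6 knockout (adjusted p = 0.437). The call in L3mbtl2 knockout ended under 8 of 21 other settings, among them the absence of any 1 wild type library (adjusted p up to 0.175 over all 21).

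Nop10 (chr2:112261926-112263269, plus strand) moved in opposite directions. It was at 43.6, 51.1 and 51.6 FPKM in wild type, with 39.99, 39.4 and 46.7 for Mga, 65.4 and 65.5 for L3mbtl2 and 64.1 and 67.2 for Pcgf6 knockout. All 4 L3mbtl2 and Pcgf6 knockout libraries lay above all wild type libraries, and the Mga knockout libraries overlapped the lowest of wild type. Relative to chromosome 2, it fell in Mga knockout, -0.38 (SE 0.08, adjusted p = 0.00744), and rose in L3mbtl2 knockout, 0.29 (SE 0.09, adjusted p = 0.0334), and in Pcgf6 knockout, 0.36 (SE 0.09, adjusted p = 0.0431). This was the only member called in Pcgf6 knockout on the relative scale. The rise in L3mbtl2 knockout did not pass against the nearest genes (0.26, adjusted p = 0.0565), and that in Pcgf6 knockout ended with any 1 wild type library left out.

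Gar1 was at 22.7, 26.7 and 27.3 FPKM in wild type, with 23.8, 20.6 and 21.6 for Mga, 20.02 and 20.8 for L3mbtl2 and 27.4 and 27.6 for Pcgf6 knockout, with both L3mbtl2 libraries below all wild type libraries. It changed by -0.39 (SE 0.09, adjusted p = 0.0111) in Mga knockout and -0.49 (SE 0.10, adjusted p = 0.00664) in L3mbtl2 knockout. These calls ended under 3 and 1 of 21 other settings, and the FPKM of the Mga knockout libraries overlapped wild type. Dkc1 was uneven in Mga knockout, at 40.1, 56.1 and 34.7 FPKM against 52.9, 54.8 and 51.6 in wild type. Its second library, the one at wild type Mga level, was above all wild type libraries and the other two were below, and the fall of 0.51 (SE 0.17, adjusted p = 0.0483) was close to the threshold and ended under 13 of 21 other settings.

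**Figure D4:**
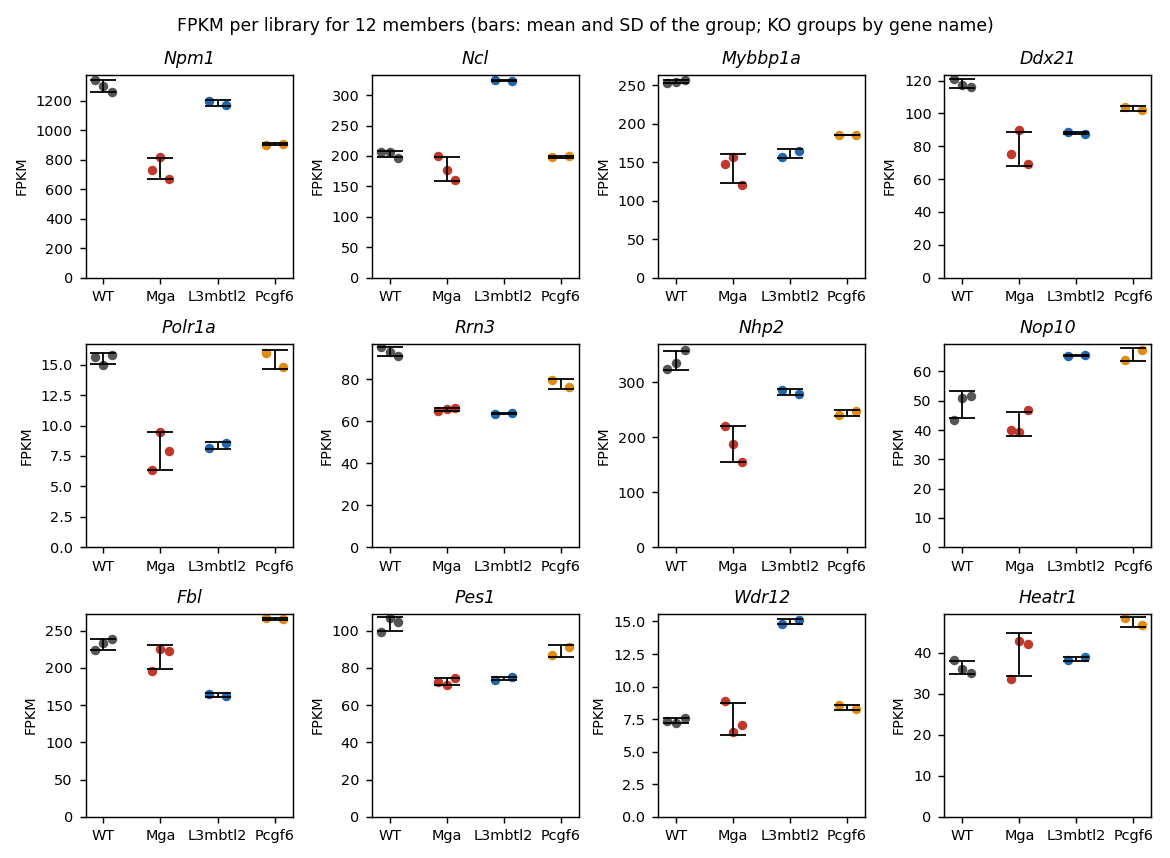
FPKM (y axis, from 0) of 12 members in each library (points), with mean and SD of each group (bars); WT is wild type and the other groups are named by the gene knocked out. Npm1, Mybbp1a, Ddx21, Polr1a, Rrn3 and Nhp2 have all 3 Mga knockout libraries below wild type, Ncl and Wdr12 are high in L3mbtl2 knockout, and Nop10 is high in L3mbtl2 and Pcgf6 knockout.

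Small subunit genes had calls in both directions, in the fit of all 10 libraries at about the share of all genes. In Mga knockout 2 of 8 fell (Ddx21 and Wdr43) and 1 rose (Utp4), beside 20% and 18.4% of all genes. Without Mga knockout replicate 2 the counts were 4 and 2, beside 28.4% and 26.1% of all genes. In L3mbtl2 knockout 2 fell (Ddx21 and Nat10) and 1 rose (Wdr75), beside 21% and 18.3%, and none was called in Pcgf6 knockout. Ddx21, an RNA helicase of the nucleolus that also acts in RNA polymerase II transcription, was at 121, 117 and 116 FPKM in wild type, with 75.3, 89.8 and 69.4 for Mga, 88.5 and 87.4 for L3mbtl2 and 104 and 102 for Pcgf6 knockout. All 7 knockout libraries lay below all wild type libraries, and those of Mga and L3mbtl2 knockout were lowest. Relative changes were -0.63 (SE 0.09, adjusted p = 0.00142) in Mga knockout, -0.41 (SE 0.10, adjusted p = 0.0143) in L3mbtl2 knockout and -0.23 in Pcgf6 knockout (adjusted p = 0.217). The call in L3mbtl2 knockout ended under 2 of 21 other settings.

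Utp4, a subunit of the complex that first binds the growing pre-rRNA, was the only member to rise in Mga knockout relative to its chromosome. It was at 106, 109 and 106 FPKM in wild type, with 116, 130.03 and 141 for Mga, 108 and 106 for L3mbtl2 and 98.3 and 95.8 for Pcgf6 knockout. Each Mga knockout library was above every other library. The rise was 0.18 (SE 0.05, adjusted p = 0.0282) and ended under 12 of 21 other settings. Wdr43 and Wdr75 encode 2 further subunits of that complex. Wdr43 changed by -0.37 (SE 0.09, adjusted p = 0.0133) in Mga knockout. Wdr75 was at 61.2 and 60.4 FPKM in L3mbtl2 knockout against 30.7, 28.4 and 27.4 in wild type. It rose there by 1.08 on the deposited scale and by 0.32 (SE 0.09, adjusted p = 0.0182) relative to chromosome 1. The relative calls at Wdr43 and Wdr75 each ended under 4 of 21 other settings.

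Heatr1, a large scaffold of the processome, was at 38.1, 36 and 35.1 FPKM in wild type, with 33.5, 42.9 and 42 for Mga, 38.2 and 38.8 for L3mbtl2 and 48.4 and 46.7 for Pcgf6 knockout. Both Pcgf6 libraries were above all others, at a relative change of 0.32 that did not pass (adjusted p = 0.105). Nat10, which acetylates rRNA, changed by -0.35 (SE 0.12, adjusted p = 0.0495) in L3mbtl2 knockout, and that call ended under 15 of 21 other settings. Rrp12, an export factor, and Utp20, a large scaffold protein, passed in no comparison with wild type on the deposited scale or relative to the chromosome. Against its nearest genes Rrp12 fell in Mga knockout (-0.29, adjusted p = 0.0086) and in L3mbtl2 knockout (-0.30, adjusted p = 0.0134). Utp20 lay between 22.6 and 28.0 FPKM in all 10 libraries.

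Large subunit genes fell in Mga knockout in 6 of 9 cases, beside 20% of all genes: Pes1, Bop1, Wdr12, Noc2l, Ftsj3 and Ebna1bp2. The count was also 6 without Mga knockout replicate 2, beside 28.4% of all genes. Against the nearest genes Pes1, Bop1, Noc2l and Ebna1bp2 did not pass in Mga knockout. In L3mbtl2 knockout only Pes1 fell and only Wdr12 rose, beside 21% and 18.3% of all genes. None was called in Pcgf6 knockout. PES1, BOP1 and WDR12 form 1 complex that processes the large subunit rRNA. Its 3 genes all fell in Mga knockout relative to their chromosomes, and only Wdr12 also fell against the nearest genes (-0.40, adjusted p = 0.00618). In L3mbtl2 knockout Pes1 fell, Wdr12 rose and Bop1 was not called, relative to their chromosomes. Pes1 (chr11:3963975-3980004, plus strand) was at 99.6, 107 and 105 FPKM in wild type, with 72.7, 70.7 and 74.8 for Mga, 73.6 and 75 for L3mbtl2 and 86.9 and 91.3 for Pcgf6 knockout. The Mga and L3mbtl2 libraries formed a band below wild type with Pcgf6 between. Relative changes were -0.27 (SE 0.07, adjusted p = 0.0136) and -0.59 (SE 0.08, adjusted p = 0.000685), the first of which did not pass against the nearest genes (-0.22, adjusted p = 0.0796).

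Bop1 was at 78.6, 82 and 87.8 FPKM in wild type, with 71.7, 71 and 82.5 for Mga, 86.5 and 86.3 for L3mbtl2 and 87.5 and 89.1 for Pcgf6 knockout, and only Mga knockout was called, at -0.20 (SE 0.06, adjusted p = 0.0321), which ended under 11 of 21 other settings. Against its nearest genes Bop1 did not pass in Mga knockout (-0.16, adjusted p = 0.0703) and rose in L3mbtl2 knockout (0.21, adjusted p = 0.0406). Wdr12 was at 7.38, 7.19 and 7.58 FPKM in wild type, with 8.89, 6.54 and 7.03 for Mga, 14.8 and 15.1 for L3mbtl2 and 8.56 and 8.25 for Pcgf6 knockout. Both L3mbtl2 libraries were far above all others, at 203% of the wild type mean. Relative to chromosome 1 the difference was 0.26 (SE 0.08, adjusted p = 0.0292), and against the nearest genes, whose median was 0.95, it was 0.06 (adjusted p = 0.653). In Mga knockout Wdr12 changed by -0.29 (SE 0.07, adjusted p = 0.0114) relative to its chromosome, although its FPKM overlapped wild type.

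Ftsj3 encodes an rRNA methyltransferase and was at 95, 95.1 and 94.2 FPKM in wild type, with 77, 63.9 and 59 for Mga, 102 and 103 for L3mbtl2 and 76.7 and 76.6 for Pcgf6 knockout. The 3 Mga knockout libraries and both Pcgf6 libraries were below wild type, and the relative change was -0.28 (SE 0.07, adjusted p = 0.0191) in Mga knockout and 0.00 in Pcgf6 knockout. Ebna1bp2, an early assembly factor, changed by -0.33 (SE 0.07, adjusted p = 0.00859) in Mga knockout, and Noc2l, a factor for export of the pre-ribosome that also binds histones, by -0.32 (SE 0.10, adjusted p = 0.04), a call that ended under 13 of 21. Against their nearest genes neither passed there, at -0.20 (adjusted p = 0.0505) for Ebna1bp2 and -0.21 (adjusted p = 0.159) for Noc2l. Nop16 was at 53.3 and 52.2 FPKM in Pcgf6 knockout against 39.7, 41.1 and 42.8 in wild type, a relative change of 0.29 that missed the threshold (adjusted p = 0.0518). Rrs1, which helps to place the 5S particle, was 66.5 and 67.4 FPKM in L3mbtl2 knockout against 37.3, 39.8 and 41.7 in wild type, which equalled the shift of chromosome 1 (0.01 relative). Rrp1b did not pass in any comparison with wild type on the deposited, chromosome or local scale.

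Eif4a1 encodes the helicase that unwinds messenger RNA for translation. It was at 598, 595 and 589 FPKM in wild type, with 499, 425 and 495 for Mga, 710.48 and 700.37 for L3mbtl2 and 438 and 441 for Pcgf6 knockout. On the deposited scale it fell in Mga and Pcgf6 knockout and rose in L3mbtl2 knockout, with no overlap with wild type. Relative to chromosome 11 none of the 3 passed: -0.09 in Mga knockout, -0.13 in Pcgf6 knockout and 0.14 in L3mbtl2 knockout. Against its nearest genes the rise in L3mbtl2 knockout passed (0.30, adjusted p = 0.0462).

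**Figure D5:**
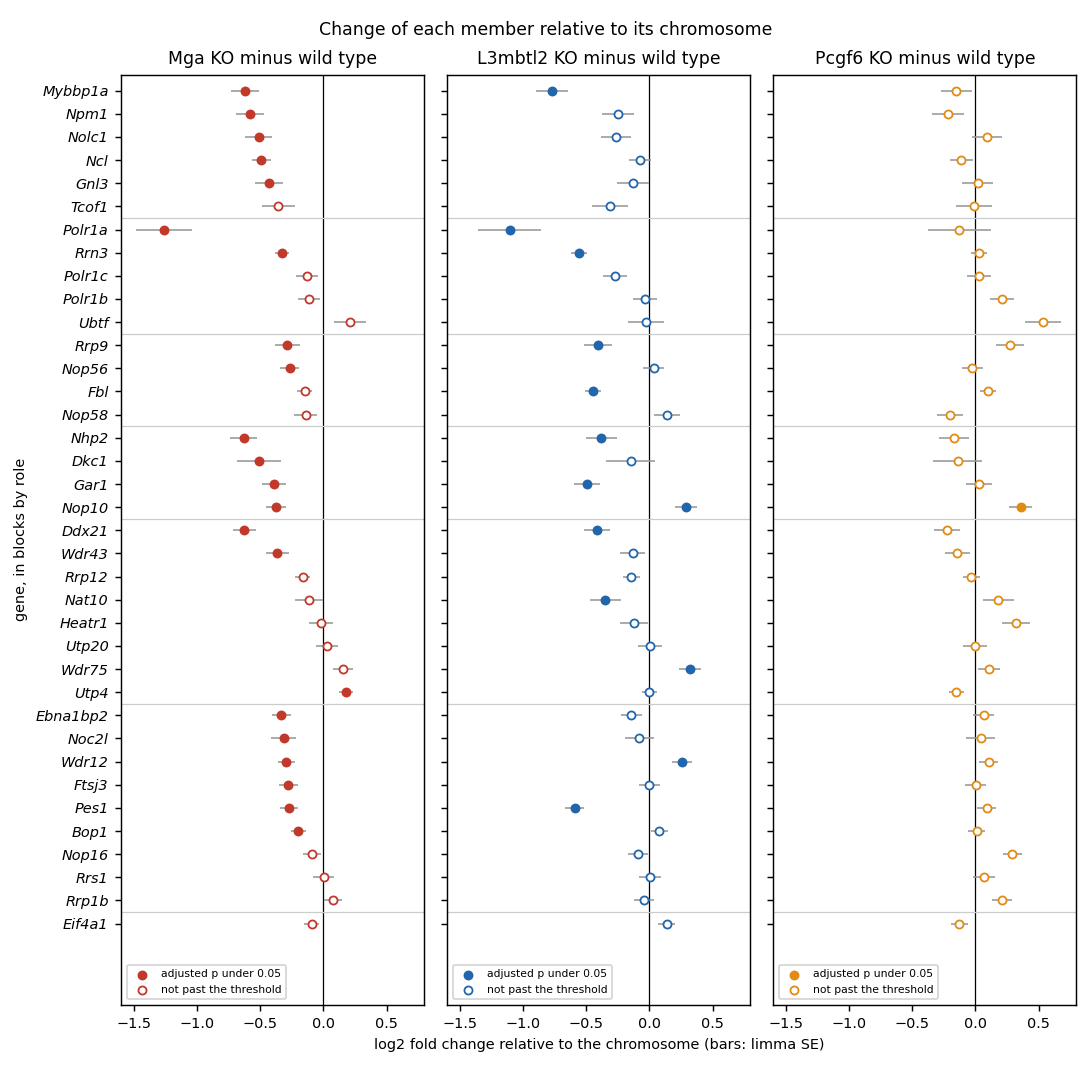
Log2 fold change of each member relative to its chromosome (x axis) in each knockout minus wild type, with genes in blocks by role (y axis); bars are limma standard errors and filled points have an adjusted p under 0.05. Filled points are 22 in Mga knockout (21 below 0), 13 in L3mbtl2 knockout (10 below 0) and 1 in Pcgf6 knockout (Nop10).

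Differences between the knockouts were tested directly, relative to the chromosomes. Against Pcgf6 knockout, Mga knockout was lower at 18 members and higher at 1 (Utp4), where 13.6% and 11.2% of all genes were. L3mbtl2 knockout was lower than Pcgf6 knockout at 11 and higher at 1 (Eif4a1), beside 16.4% and 12.4% of all genes. Mga knockout was lower than L3mbtl2 knockout at 7 members and higher at 3, beside 9.95% and 11.6% of all genes. The 7 were Nop10, Wdr12, Ncl, Nop56, Bop1, Ftsj3 and Eif4a1, and the 3 were Rrn3, Fbl and Pes1. Nop10 differed by -0.66 (SE 0.09, adjusted p = 0.00169) between Mga and L3mbtl2 knockout and by -0.74 (SE 0.09, adjusted p = 0.00125) between Mga and Pcgf6 knockout. Fbl differed by 0.30 (SE 0.06, adjusted p = 0.0126) between Mga and L3mbtl2 knockout, and by -0.55 (SE 0.07, adjusted p = 0.00125) between L3mbtl2 and Pcgf6 knockout. Pes1 and Rrn3 were also lower in L3mbtl2 than in Pcgf6 knockout, by -0.68 (SE 0.08, adjusted p = 0.00109) and -0.59 (SE 0.07, adjusted p = 0.001). Leaving out the library labelled Mga knockout replicate 2 brought the members called to 31 between Mga and Pcgf6 knockout, 20 between Mga and L3mbtl2 knockout and 21 between L3mbtl2 and Pcgf6 knockout. Leaving out either Pcgf6 library brought them to 2, 6 and 4 in the same order, and either L3mbtl2 library to 15, 2 and 3 to 5. With only the 2 groups compared they were 1, 1 and 25. The share of all genes called between knockouts under these settings is not given here, so these counts show only how the calls moved. Calls over all genes moved too: against wild type, falls in Mga knockout went from 20% to 28.4% without its replicate 2.

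Among the regulators, Mycn was lower and E2f6 higher in every knockout. Mycn, the MYC family gene with the highest FPKM in wild type, was at 81.6, 82.4 and 85.2 FPKM in wild type, with 46.6, 49.3 and 43.9 for Mga, 22.7 and 23.4 for L3mbtl2 and 41.1 and 40.7 for Pcgf6 knockout. No knockout library reached the wild type range, and L3mbtl2 knockout was lowest. Relative changes were -1.10 (SE 0.12, adjusted p = 0.000319), -2.04 (SE 0.13, adjusted p = 3.08e-05) and -1.07 (SE 0.13, adjusted p = 0.00315) in Mga, L3mbtl2 and Pcgf6 knockout. E2f6, which encodes the E2F subunit of PRC1.6, rose by 1.34, 1.14 and 0.77 in the same order. Myc was at 28.2, 27.4 and 28.1 FPKM in wild type, with 32.6, 11.6 and 19.5 for Mga, 45.2 and 44.8 for L3mbtl2 and 29.9 and 29.3 for Pcgf6 knockout, uneven in Mga knockout and above wild type in both L3mbtl2 libraries, and passed in none of the 3 (adjusted p = 0.19, 0.152 and 0.999). Mnt, which encodes a repressor that pairs with MAX, fell in Mga knockout (-0.75 (SE 0.17, adjusted p = 0.009)) and L3mbtl2 knockout (-0.81 (SE 0.19, adjusted p = 0.0105)). Max itself did not pass in any comparison, and how far these regulators act on the members was not tested. Of the 15 listed regulators, Mga among them, 3 fell and 2 rose relative to their chromosome in Mga knockout. Of all genes 20% and 18.4% did. Without Mga knockout replicate 2 the counts were 5 and 3, beside 28.4% and 26.1% of all genes.

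Other genes of the pathway had more falls than rises in Mga and L3mbtl2 knockout. Of 121 ribosome biogenesis genes that are not members, 42 fell and 9 rose relative to their chromosome in Mga knockout, beside 20% and 18.4% of all genes. In L3mbtl2 knockout 35 fell and 14 rose, beside 21% and 18.3%, and in Pcgf6 knockout 1 fell and 9 rose, beside 4.15% and 5.23%. Without Mga knockout replicate 2, 56 fell and 13 rose in Mga knockout, beside 28.4% and 26.1% of all genes. Their median relative changes were -0.16, -0.10 and 0.06. Of 43 further small subunit genes 17 fell and 1 rose in Mga knockout, including Aatf (-0.64), Utp18 (-0.56) and Imp4 (-0.54). Of 47 further large subunit genes 17 fell and 4 rose, with Ddx56, Gtpbp4 and Ddx18 at -0.62, -0.55 and -0.41 and Nip7 at 0.45. RNA polymerase I genes outside the members split, with 4 of 10 down and 2 up in Mga knockout. Znrd1, a small subunit of RNA polymerase I, rose in all 3 knockouts, by 0.63, 0.95 and 0.75. Among 9 snoRNP assembly genes Znhit6 was at -0.84 and Shq1, the assembly chaperone of dyskerin, at 0.72 in Mga knockout, with 2 down and 2 up in all, about the general share. Of 12 exosome and rRNA decay genes 2 fell in Mga knockout and 3 fell and 1 rose in L3mbtl2 knockout, where Exosc3 was at -1.05, and these counts too were near the general share. Without Mga knockout replicate 2, 20 of the 43 small subunit genes fell and 2 rose in Mga knockout, and 21 and 6 of the 47 large subunit genes. Falls and rises were 5 and 3 of the 10 RNA polymerase I genes and 4 and 2 of the 9 snoRNP assembly genes. They were 6 and 0 of the 12 exosome genes. All these stand beside 28.4% and 26.1% of all genes.

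MYC targets outside ribosome making also had more falls than rises in Mga and L3mbtl2 knockout. Of 35 such genes 20 fell and 1 rose relative to the chromosome in Mga knockout, beside 20% and 18.4% of all genes. Without Mga knockout replicate 2 the counts were 26 and 1, beside 28.4% and 26.1% of all genes. In L3mbtl2 knockout 15 fell and 2 rose, beside 21% and 18.3%, and in Pcgf6 knockout none fell and 4 rose, beside 4.15% and 5.23%. Their medians were -0.33, -0.31 and -0.02. Odc1, the rate-limiting enzyme of polyamine synthesis, was at 351, 297 and 306 FPKM in Mga knockout and 409, 399 and 404 in wild type, a relative change of -0.62 (SE 0.07, adjusted p = 0.000352). Gart, a purine synthesis enzyme, changed by -0.67 and -0.87 in Mga and L3mbtl2 knockout, and Ran, the nuclear transport GTPase, by -0.46 and -0.53. Tfrc, the transferrin receptor, rose in both, by 0.69 and 0.80. Nme1, a nucleoside diphosphate kinase gene, and Phb, which encodes prohibitin, rose in Pcgf6 knockout, by 0.77 and 0.65. Nme1 and Nme2 are near-identical neighbours, so their reads could be split.

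The fit shared 1 estimate of spread over all groups, of which Mga knockout was the most uneven. With only the 2 groups compared in the fit, 11 members fell relative to the chromosome in Mga knockout (13.3% of all genes), 19 fell and 5 rose in L3mbtl2 knockout (34% and 31.6%), and 9 fell and 10 rose in Pcgf6 knockout (21.2% and 20.2%). The 8 members that fell in Mga knockout under every setting tried were Npm1, Ncl, Nolc1, Mybbp1a, Polr1a, Rrn3, Nhp2 and Ddx21, and the 4 in L3mbtl2 knockout were Mybbp1a, Rrn3, Fbl and Pes1. Against the nearest genes in place of the chromosome, 7 of the 22 calls in Mga knockout were lost and 1 was gained (Rrp12), and in L3mbtl2 knockout 3 of 13 were lost and 5 gained (Npm1, Polr1c, Rrp12, Bop1 and Eif4a1). Of the 37 members 13 have an exon that overlaps another listed gene, in each case at least 1 on the other strand, and the library kit does not mark strand, so reads there could not be told apart.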

How the data were processed

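The authors deposited 1 FPKM value per gene and library. Bowtie2 2.2.3, TopHat2 2.0.12 and HTSeq 0.6.0 and the GRCm38 build are named per the submitters' processing notes, and no source used here gives the treatment of multiply mapped or overlapping reads. The steps of the values gave whole reads at 98.3% of genes above 0, within 0.005 of a read, from which depth was taken. Genes that reached 0.5 FPKM in 2 or more libraries were tested with limma 3.58.1 (R 4.3.3) on log2(FPKM + 0.1), a scale that understates changes of low genes. A single fit held the 10 libraries, with no term but the group and a prior variance that follows the mean. Benjamini-Hochberg adjustment ran over all tested genes, and the threshold was 0.05. For relative changes the median log2 deviation from the wild type mean, over the tested genes of a chromosome (at least 100), was subtracted in each library before the same fit. The procedure was tested on simulated data with a single spread for all groups and a chromosome shift equal in all libraries of a group. The median SD of a gene, in log2 units, was 0.34 in Mga knockout and 0.06 to 0.09 in the other groups. The simulation therefore does not cover the uneven Mga knockout libraries. Reads are not independent molecules, so depth speaks to counting error only.

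The members and gene lists were chosen with earlier results of these data known, from general knowledge of the pathway. The rule named all 37 members, 15 regulators and, per pathway list and comparison, up to 3 genes of smallest p in each direction, of which some are given. Of the listed pathway genes 3 (Prmt1, Exosc6 and Riok2) were not analysed here. Alternatives were other pseudocounts, filters, scalings, spread models, a replicate block, recovered reads with limma-voom, local centring and leaving out each library. Samples with the same replicate number did not deviate together from their group means, so the numbers were not used as pairs.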

Additional observations from a re-analysis of the deposited data

How the results depend on the processing

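The median relative change of the members over 21 alternatives ran from -0.31 to -0.21 for Mga, -0.14 to -0.01 for L3mbtl2 and 0.01 to 0.08 for Pcgf6 knockout. Of 2351 alternatives for 113 single-gene calls, 1862 kept the call, 488 kept the direction only, and 1 changed direction: Ubtf between L3mbtl2 and Pcgf6 knockout, at 0.036 against the nearest genes. Counts below are members lower and higher. Without genes of chromosomes 1, 11, 16, X and Y, deposited counts were 5 and 1 for Mga, 5 and 1 for L3mbtl2, and 0 and 1 for Pcgf6 knockout. Of all genes then tested 14.4%, 16.9% and 2.14% were lower in the same order. With a spread per group, L3mbtl2 knockout had 15 and 11 deposited and 19 and 5 relative, Pcgf6 knockout 9 and 16 deposited and 8 and 9 relative, Mga knockout 1 higher deposited and 0 higher relative, and 27 were called between L3mbtl2 and Pcgf6 knockout. With only the 2 groups compared, L3mbtl2 knockout had 15 and 12 deposited and 19 and 5 relative, Pcgf6 knockout 9 and 14 deposited and 9 and 10 relative, Mga knockout 0 higher deposited and 11 and 0 relative. Between knockouts that fit called 1 (Mga and L3mbtl2), 1 (Mga and Pcgf6) and 25 (L3mbtl2 and Pcgf6). Calls over all genes moved as well. With a spread per group, relative falls over all genes were 14.4%, 35% and 22% in Mga, L3mbtl2 and Pcgf6 knockout. Rises were 10.1%, 33.2% and 22.3%. With only the 2 groups compared, falls were 13.3%, 34% and 21.2% and rises 12.1%, 31.6% and 20.2%. Shares of deposited rises and of calls between knockouts under other settings are not given here. The cause of these moves was not tested.

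Small counts of rises moved under other settings. The deposited rises in Mga knockout were 1 with no filter, 1 with median-of-ratios factors and 0 with upper-quartile scaling. The relative rises there were 2 with no filter, 2 with a filter of 5 FPKM and 0 with the nearest genes. Of all genes 11.1%, 22.5% and 17.8% rose under those settings. In L3mbtl2 knockout 6 rose relative to the chromosome with no filter, beside 12.5% of all genes. In Pcgf6 knockout the deposited rises were 0 with no filter and 5 with the stricter filter. Relative rises there were 3 with the stricter filter, beside 7.15% of all genes, and 2 with no filter, beside 2.86%. They were also 2 with either scaling, beside 5.28% and 5.29%, or a pseudocount of 1 FPKM, beside 5.16%. With the replicate block, Mga knockout had 0 relative rises, beside 16.6% of all genes, and Pcgf6 knockout 1 deposited rise. Under that block 6 and 11 members were called between Mga and L3mbtl2 and between Mga and Pcgf6 knockout. Deviations of the libraries from their own group mean correlated at -0.02 to 0.03 over 13 same-numbered pairs, so no pairing by number was seen. In groups of 2 libraries these deviations mirror each other, so the 13 pairs are not separate checks.

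Leaving out 1 library at a time gave, on the deposited scale, 10 to 17 lower and 0 to 3 higher for Mga, 5 to 12 and 5 to 8 for L3mbtl2, and 0 to 7 and 0 to 8 for Pcgf6 knockout. On the relative scale it gave 12 to 27 and 0 to 2, 4 to 14 and 0 to 4, and 0 to 3 and 0 to 7. Calls between knockouts ranged over 2 to 20 (Mga and L3mbtl2), 2 to 31 (Mga and Pcgf6) and 3 to 21 (L3mbtl2 and Pcgf6). The lowest relative count in Mga knockout, without wild type replicate 2, stood beside falls at 13.7% of all genes. Its highest, without Mga knockout replicate 2, stood beside falls at 28.4%. In L3mbtl2 knockout the lowest was without its own replicate 1, where the lone library is assumed to vary like the other groups.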
